A study of Bombyx mori with 3 samples.

Results

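The 6 genes described here encode parts of the machinery that makes protein: the elongation factor EF1a (GeneID_693059), Tctp (GeneID_732859), the small-subunit ribosomal proteins RpS3Ae (GeneID_692713), RpS23 (GeneID_692722) and RpS27a (GeneID_100033385), and the large-subunit ribosomal protein RpL10 (GeneID_692602). They are 6 of 17072 genes in the deposited tables and were chosen by identifier for their high level in these same libraries, so their levels are given as a description, with no test. The 3 libraries form a single group, larval brain: wild-type silkworms (Bombyx mori) of the P50 strain, sampled on day 3 of the 5th instar and reared on mulberry leaves with 14 h of light and 10 h of dark at 26 °C. The series title concerns G-quadruplexes in promoters and tissue-specific expression; no other tissue was analysed here and the labels name no contrast. Whether each library had its own animals is not stated in the labels, and the spread over libraries (SD, n = 3) may be technical in part.

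During translation EF1a, bound to GTP, carries aminoacyl-tRNA to the ribosome, whose small subunit reads the messenger RNA and whose large subunit joins the amino acids. In mammals many messages for ribosomal proteins and elongation factors, and that of TCTP, begin with a run of pyrimidines through which the TOR kinase controls their translation. Growing cells and cells with much secretion make large amounts of these messages.

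The libraries held 19843776, 17935488 and 23895452 gene counts in replicates 1, 2 and 3. Brain markers were present in each: 6 of 6 neuron genes and 4 of 4 glia genes stood at 1 TPM (a level divided by gene length and scaled to 1000000 per library) or more in every library. Of 4 silk gland genes 0 did so, and of 4 midgut genes 0. The level was also reached by 3 of 3 hemocyte, 3 of 3 muscle, 1 of 2 fat body and 68 of 206 cuticle genes. Of the 10173 genes with enough counts 9734 reached it, so it does not single out brain. The marker lists were not filtered in this way: 1 of 4 silk gland, 0 of 4 midgut and 61 of 206 cuticle genes had enough counts. Over all 17072 genes the share is lower, since a gene with a mean of 1.06 TPM stood in position 10378. Replicate 1 stood apart in genes of cuticle, whose 206 members summed to 2403 TPM there, against 9243 and 7181 TPM in replicates 2 and 3; 48 of them had no count in any library.

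EF1a, which delivers tRNA to the ribosome, was the highest of the 6 genes. It measured 10787, 9788 and 10454 TPM in replicates 1, 2 and 3, a mean of 10343 ± 509 TPM (SD, n = 3). It lay in position 3 of all genes in replicate 1 and in position 4 in replicates 2 and 3. It alone took 34.0 ± 1.29% of the summed TPM of the 6 genes, and 57.7 ± 1.36% of their summed counts.

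Tctp, a small conserved protein named for the translational control of its message in mammals, measured 4817, 4350 and 4280 TPM in replicates 1, 2 and 3. Its mean was 4482 ± 292 TPM (SD, n = 3), position 11 among all genes. Replicate 1 was the highest, and replicates 2 and 3 were close to each other.

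Among the small-subunit proteins, RpS3Ae measured 5370, 4624 and 4710 TPM in replicates 1, 2 and 3 (mean 4902 ± 408 TPM; SD, n = 3). RpS23, which lies by the decoding centre of the small subunit, measured 4475, 3932 and 3740 TPM in the same order (mean 4049 ± 381 TPM). RpS27a, which in other eukaryotes is made as a fusion with ubiquitin and then cut free, measured 2921, 2526 and 2492 TPM (mean 2646 ± 239 TPM). All 3 genes were highest in replicate 1, while the lowest library was replicate 2 for RpS3Ae and replicate 3 for the other two.

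RpL10, a late-joining protein of the large subunit whose gene also carries the older name Qm, measured 4434, 3841 and 3856 TPM in replicates 1, 2 and 3 (mean 4044 ± 338 TPM; SD, n = 3). It could not be ranked against RpS23, since RpS23 was above it in 2 of 3 libraries and below it in replicate 3.

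In the order of mean TPM, EF1a stood first with no overlap: its lowest library lay above the highest RpS3Ae library, and the ratio between them was 2.11 ± 0.105 (SD, n = 3). The ranges of RpS3Ae and Tctp overlapped, as did those of Tctp and RpS23, although within each library the order RpS3Ae, Tctp, RpS23 held in 3 of 3. RpS27a was last, with a range below that of RpL10 and a ratio of RpL10 to RpS27a of 1.53 ± 0.0160.

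**Figure D1:**
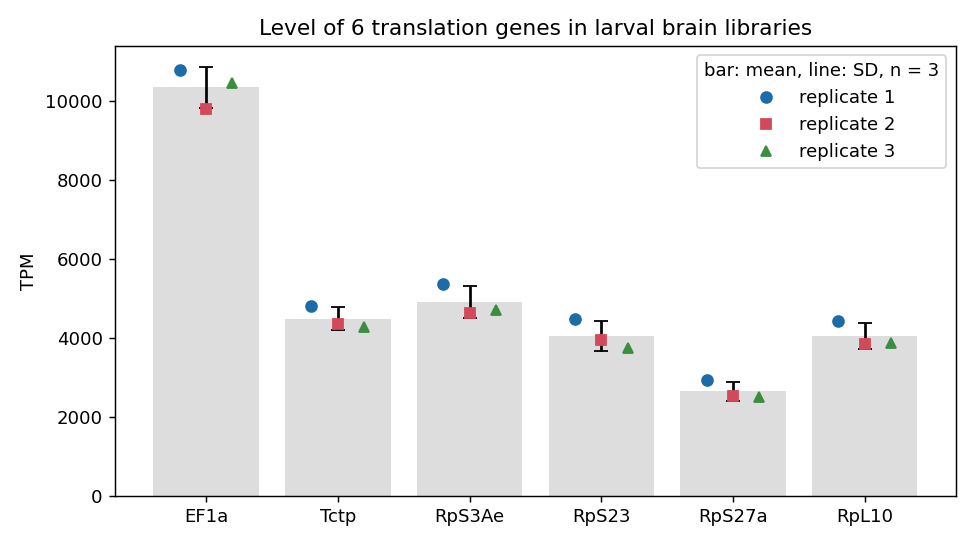
Level of the 6 genes in TPM, with 1 point per library, bars at the mean and lines for the SD (n = 3). EF1a averaged 10343 TPM and the other genes between 2646 and 4902 TPM, and replicate 1 was the highest library for each.

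Together the 6 genes held 3.28, 2.91 and 2.95% of the TPM in replicates 1, 2 and 3, a mean of 3.05 ± 0.204% (SD, n = 3). Of the raw counts, which are not divided by length, they held 1.80% in replicate 1 (95% exact binomial interval 1.79 to 1.80%). The other libraries had 1.55% (1.55 to 1.56%) for replicate 2 and 1.59% (1.59 to 1.60%) for replicate 3. These intervals cover counting error only and are far narrower than the gap between replicate 1 and the other libraries. The mean share of counts was 1.65 ± 0.130%.

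The difference between both shares follows from gene length. The length used for TPM can be read from the ratio of counts to TPM, relative to EF1a: it was 0.438 of EF1a's for Tctp, 0.432 for RpS3Ae, 0.364 for RpL10, 0.315 for RpS23 and 0.292 for RpS27a. EF1a therefore kept a high place in counts (201335, 159896 and 224932 counts in replicates 1, 2 and 3; position 5 of all genes by mean CPM, the counts scaled to 1000000 per library), while RpS27a stood at position 38 by TPM and 154 by CPM. Of the 6 genes 5 were among the 20 highest by TPM and 1, EF1a, by CPM.

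The 4 ribosomal genes of the set were high within their own family. The family list, matched by symbol or synonym in the reference gene table, held 79 rows: 32 of the small (40S) and 47 of the large (60S) subunit. A pair of rows, LOC100101172 and LOC692701, share the synonym RpL24. The 79 genes together held 16.1 ± 1.31% of the TPM (SD, n = 3), and their median was 1953 ± 178 TPM. RpS3Ae was first of the 79, at 2.52 times the median of the family means; RpS23 was at 2.08 times, RpL10 at 2.08 times, and RpS27a, in position 19, at 1.36 times.

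Proteins of the ribosome are present in equal numbers in the finished particle, with few exceptions, but their messages were not equal. Mean TPM ranged 8.69-fold within the 40S list, down to RpS29 (564 ± 122 TPM; SD, n = 3) and RpS21 (948 ± 88.4 TPM). In the 60S list RpL10, RpL3 (4018 ± 318 TPM) and RpL23A (3706 ± 206 TPM) were at the top and RpL38 (352 ± 50.9 TPM) was near the bottom. Below it lay only RpL7Ae (109 ± 5.42 TPM), LOC100101172 (108 ± 15.3 TPM), which the reference table does not class as protein-coding, and RpL20 (76.1 ± 4.52 TPM). These 3 rows were matched by symbol or synonym alone, and whether they belong to the cytosolic ribosome was not tested. The lower and upper quartiles of the 79 means were 1436 and 2575 TPM. The subunit lists had medians of 1964 ± 183 TPM (40S) and 1927 ± 132 TPM (60S), a gap smaller than the spread between libraries.

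Near neighbours in the family order had overlapping ranges, though some pairs kept their order within every library. RpS23 was above RpS6 (3719 ± 245 TPM; SD, n = 3) in 3 of 3 libraries, but their ranges overlapped. RpL10 was above RpL3 in 2 of 3 libraries. RpS27a lay below RpS16 (2722 ± 254 TPM) in 3 of 3 and above RpS4 (2520 ± 166 TPM) in 2 of 3. RpS3Ae was the exception, with a range wholly above that of RpS23, the next 40S gene, and it was first in every library.

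**Figure D2:**
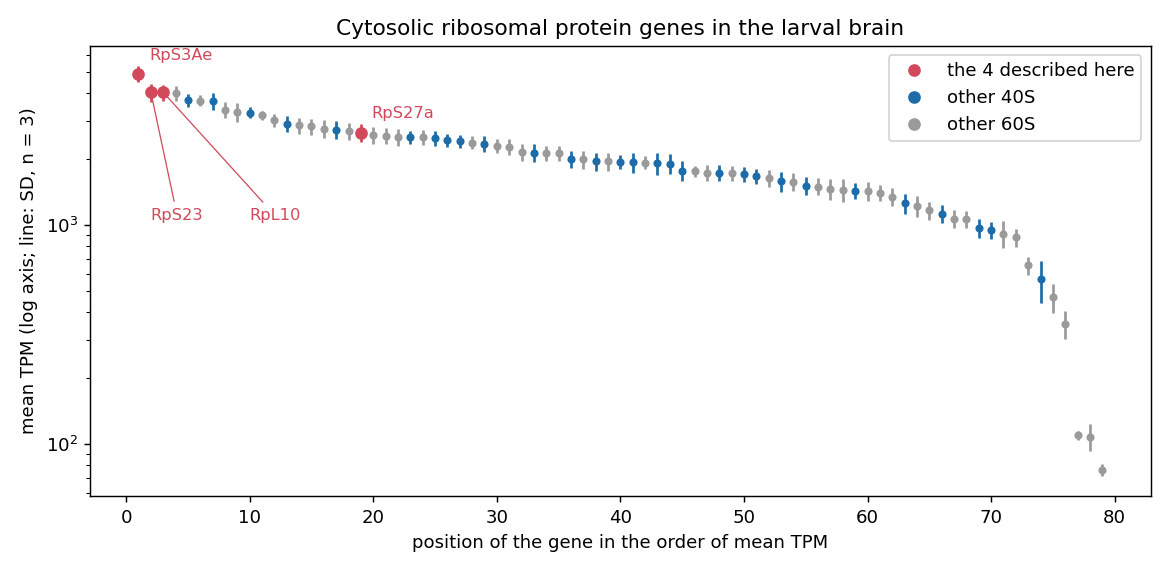
Mean TPM (log axis) of the 79 rows matched as cytosolic ribosomal protein genes against their position in the order of means, with lines for the SD (n = 3). RpS3Ae, RpS23 and RpL10 hold positions 1 to 3 and RpS27a position 19, and 3 rows matched to the 60S list by name alone lie between 76.1 and 109 TPM.

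Among the elongation factors EF1a stood far above its partners. Ef1beta and Ef-1d, guanine nucleotide exchange subunits that reload EF1a with GTP, were at 1404 ± 90.9 and 402 ± 31.5 TPM (SD, n = 3), and Ef-1g, a structural subunit of the same complex, at 2621 ± 172 TPM. tef2, taken here from its symbol as the factor that moves the ribosome along the message, was at 3252 ± 63.7 TPM. EF1a exceeded Ef-1g 3.95 ± 0.138-fold, Ef1beta 7.37 ± 0.214-fold, Ef-1d 25.8 ± 1.60-fold and tef2 3.18 ± 0.101-fold. Against the median ribosomal gene of each library, EF1a was 5.31 ± 0.324 times as high.

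Initiation factors were at lower levels than the 6 genes. Of 13 matched genes Eif-4a, the helicase that opens the leader of the message, was highest (1263 ± 65.0 TPM; SD, n = 3), followed by the eIF3 subunits eIF3h (734 ± 72.8 TPM) and eIF3g (677 ± 58.7 TPM). LOC733122, an eIF3k gene by its synonym (160 ± 11.1 TPM), and Eif2g, the GTP-binding subunit of the factor that brings the initiator tRNA (45.7 ± 3.74 TPM), were lowest. The Eif2g row also carries the synonym su(var)3-9, and whether it measures that subunit alone was not tested. The 10 ribosomal protein genes of the mitochondrion ranged from mRpS10 (30.1 ± 2.27 TPM) and mRpS18C (43.2 ± 3.63 TPM) to mRpL12 (133 ± 3.70 TPM), mRpS5 (140 ± 7.90 TPM) and mRpL32 (159 ± 16.3 TPM).

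The only other ubiquitin gene that the list matched, LOC101740600 (synonym Ubi3), was at 190 ± 22.0 TPM (SD, n = 3). RpS27a exceeded it 14.0 ± 0.550-fold, with ratios of 13.7, 13.7 and 14.6 in replicates 1, 2 and 3. Genes that act on translation from outside the ribosome fell into a pair of groups by level. Pabp, which binds the poly(A) tail (3030 ± 102 TPM), and Rack1, a scaffold on the small subunit (1702 ± 118 TPM), were close to the ribosomal genes. The TOR kinase genes TOR1 (17.5 ± 0.490 TPM) and TOR2 (39.5 ± 1.63 TPM), the S6 kinase gene LOC100174852 (72.3 ± 0.124 TPM) and Rheb, a small GTPase upstream of TOR (32.7 ± 5.71 TPM), were far lower. In Drosophila, Tctp has been described as acting on Rheb.

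The ratios among the 4 ribosomal genes of the set were steadier than their levels. RpS3Ae to RpL10 was 1.21, 1.20 and 1.22 in replicates 1, 2 and 3, a coefficient of variation (SD over mean) of 0.741%. Counting error alone gives 0.789% for that pair, so the spread of this ratio was no larger than the depth can resolve. RpS27a to RpL10 was 0.659, 0.657 and 0.646, with 1.04% against 1.03% from counting. By comparison, the TPM of RpS3Ae, RpS27a and RpL10 varied by 8.32%, 9.01% and 8.36% over the same libraries.

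The pairs fell into tight and loose ones. The 6 pairs of ribosomal genes had a median coefficient of variation of 1.79% (0.741 to 3.55%), and the 4 pairs of Tctp with a ribosomal gene 2.44% (2.08 to 3.08%). The 5 pairs with EF1a had 5.46% (4.95 to 7.93%), and so were no steadier than the TPM of EF1a itself (4.92%). Each was steadier than the TPM of its other gene, which varied by 6.51% (Tctp) to 9.42% (RpS23). The ratio of EF1a to RpS23 was the loosest, at 2.41, 2.49 and 2.80 in replicates 1, 2 and 3. RpS23 was also in the loosest ribosomal pair, with RpS3Ae to RpS23 at 1.20, 1.18 and 1.26, where counting error alone gives 0.823%.

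Relative to EF1a, each of the other 5 genes was highest in replicate 1 and lowest in replicate 3. Tctp was at 0.447, 0.444 and 0.409 of the EF1a TPM in replicates 1, 2 and 3, and RpS3Ae at 0.498, 0.472 and 0.451. RpS23 was at 0.415, 0.402 and 0.358, RpL10 at 0.411, 0.392 and 0.369, and RpS27a at 0.271, 0.258 and 0.238. EF1a accordingly took 32.9, 33.7 and 35.4% of the TPM of the 6 genes in replicates 1, 2 and 3. EF1a itself kept a steadier ratio to Hsc70-4, a constitutive chaperone of like level: 1.06, 1.02 and 1.02.

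**Figure D3:**
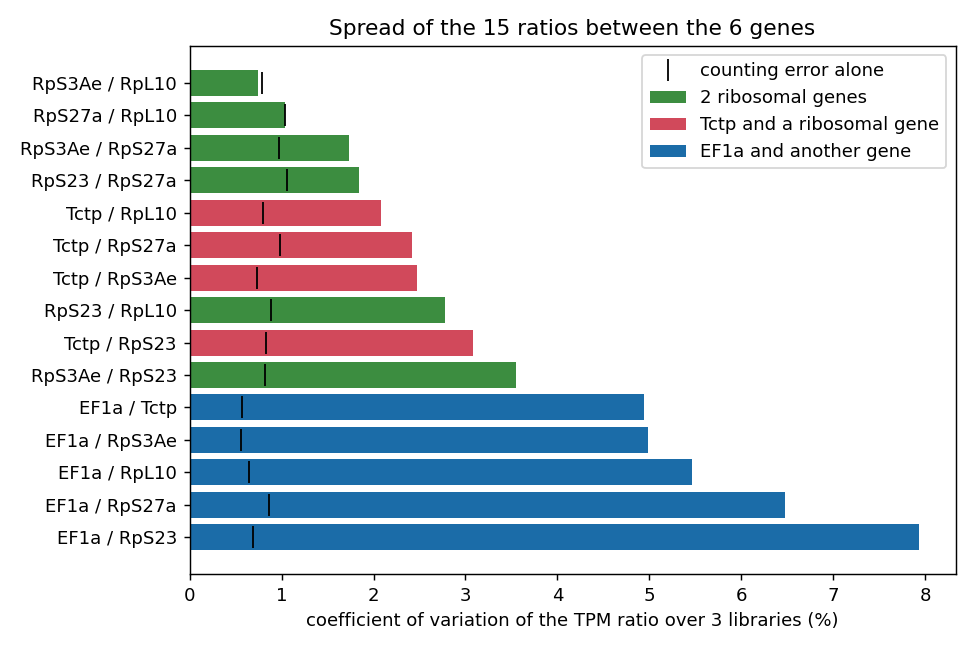
Coefficient of variation over the 3 libraries, in percent, of each of the 15 TPM ratios between the 6 genes; the tick on each bar marks what counting error alone gives. Pairs of ribosomal genes lie between 0.741% and 3.55%, pairs with EF1a between 4.95% and 7.93%.

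The 6 genes shifted together over the libraries. The shift is how far a library lies from the gene's own mean over the 3 libraries on a log2 scale, using CPM scaled by TMM (a scaling that centres most genes) with 1 added. Its median over the 6 genes was 0.15, -0.06 and -0.08 in replicates 1, 2 and 3, against 0.00, 0.00 and 0.00 over all 10173 genes with enough counts. Replicate 1 was the highest library for 6 of 6 genes; this held for 41.9% of all genes. In a bulk sample, fewer cells of a type and less RNA per cell cannot be told apart.

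The size of the shift differed among the 6. In replicate 1 it was smallest for EF1a (0.08) and Tctp (0.12), and 0.15 for RpS3Ae, 0.15 for RpL10, 0.16 for RpS27a and 0.16 for RpS23. In replicate 3 it was 0.00 for EF1a, -0.08 for Tctp, -0.07 for RpS3Ae, -0.09 for RpL10, -0.10 for RpS27a and -0.13 for RpS23. The counting error of one such log2 value was at most 0.0132 (RpS27a, replicate 2). The shift of replicate 1 lay at percentile 69.9 of all tested genes for EF1a, 81.9 for Tctp and 88.3 to 90.6 for the ribosomal genes. Between the highest and lowest library, the scaled CPM differed 1.11-fold for EF1a and 1.23-fold for RpS23.

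The whole ribosomal family was raised in replicate 1, while in replicate 2 the shifts of its genes ran from -0.10 to 0.17. Its median shift was 0.15, -0.05 and -0.10 in replicates 1, 2 and 3, and replicate 1 was the highest library for 77 of 79 genes. The exceptions, named because they are few, were RpS25 and RpL39, both highest in replicate 2. In replicate 1 the shift of the family ran from 0.08 to 0.24, so that all of its genes were above their own mean. EF1a, at 0.08, lay just under the lowest of them. Replicate 1 was also highest for 5 of 5 elongation factors (EF1a included), 10 of 13 initiation factors and 10 of 10 mitochondrial ribosomal genes. Their median shifts were 0.12, 0.12 and 0.10. Over all tested genes replicate 1 was the highest for 41.9%. Outside the translation lists this share was 43.1% between 10 and 100 TPM and 54.9% between 100 and 1000 TPM. In the shortest 20% of genes by relative length, also outside those lists, it was 63.4% and 61.0% at these levels. The median mitochondrial ribosomal gene, at 0.445 of the length of EF1a, is as short as that group. Of the 6 regulators listed (Pabp, Rack1, TOR1, TOR2, the S6 kinase gene and Rheb) replicate 1 was the highest for 3, with a median shift of -0.01 and the lowest value at Rheb (-0.24).

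**Figure D4:**
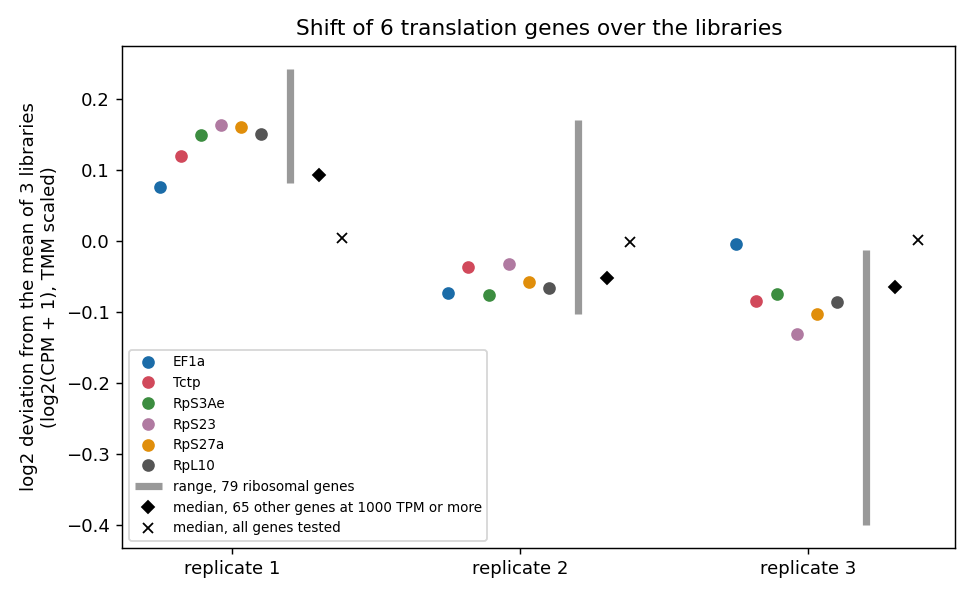
Shift of each library on the log2 scale, relative to the gene's mean over 3 libraries (TMM-scaled log2(CPM + 1)), for the 6 genes, with the range of the 79 ribosomal genes as a grey line, the median of 65 abundant genes outside the translation lists as a diamond and the median of all tested genes as a cross. The 6 genes lie between 0.08 and 0.16 in replicate 1 and at or below 0.00 in replicates 2 and 3.

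Abundant genes outside the translation lists shared part of this shift. They were set apart by symbol or synonym only, and 2128 of 17072 identifiers had no match. Translation genes may therefore remain among them. Of 65 genes with a mean of 1000 TPM or more outside the translation lists, replicate 1 was the highest for 47 (72.3%), and their median shift in replicate 1 was 0.09. In replicate 1 the alpha-tubulin gene Tua1 (0.18), the actin gene A4 (0.14) and the retinoid-binding protein gene Crabp (0.12) fell in the ribosomal range. Hsc70-4 (0.04) and Ant, the mitochondrial ADP/ATP carrier (0.02), shifted less. Tua1, A4 and Crabp were lowest in replicate 2 (-0.12, -0.10 and -0.07), with -0.07, -0.03 and -0.05 in replicate 3. The ribosomal median was lowest in replicate 3 (-0.10). Between 1 and 10 TPM replicate 1 was the highest for 25.3% of genes outside the translation lists. A share of 6 in 6 among genes picked for high level is therefore to be read against 72.3% rather than against the share over all genes.

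Gene length moved with the shift as well. Among genes outside the translation lists, the median shift of replicate 1 was 0.08 in the shortest 20% by implied length, 0.06, 0.03 and -0.01 in the next bins of 20% and -0.08 in the longest 20%. Of the 79 ribosomal genes 78 were in the shortest 20%, as were 5 of the 6 genes described; EF1a was not. Within the shortest 20%, the 28 genes at 1000 TPM or more outside the translation lists had a median shift of 0.11 in replicate 1, against 0.15 for the 5 members and 0.15 for 67 ribosomal genes at that level. Replicate 1 was the highest for 67.9% of those 28 genes. The part of length or of level in the shift of the 6 genes was not tested.

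Length also went with the pattern inside the ribosomal family. Its 10 shortest genes, all at or below 0.203 of the length of EF1a, had median shifts of 0.14, 0.02 and -0.16 in replicates 1, 2 and 3, while its 10 longest had 0.14, -0.07 and -0.07. RpS29, one of the shortest, measured 651, 617 and 425 TPM in replicates 1, 2 and 3. RpS23, RpS27a and RpL10, of medium length in the family, were lower in replicate 3 than in replicate 2 on this scale, as the middle 59 genes were by their median (-0.05 in replicate 2 and -0.10 in replicate 3). RpS3Ae, also among those 59, was not: its shift was -0.08 in replicate 2 and -0.07 in replicate 3.

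**Figure D5:**
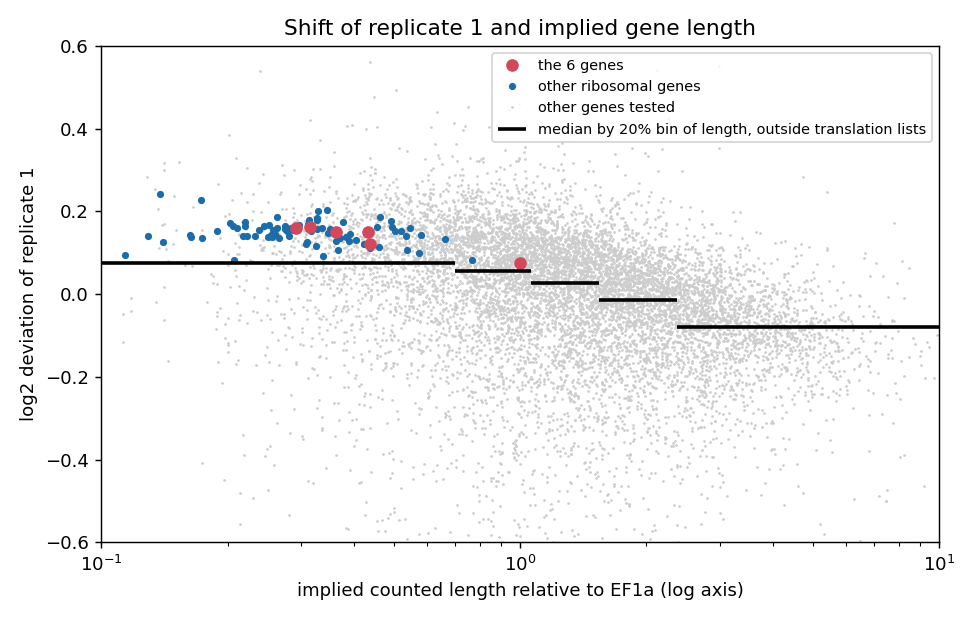
Log2 deviation of replicate 1 against the implied counted length relative to EF1a (log axis) for 10173 genes, of which 398 lie outside the axes; black lines give the median in each 20% bin of length for genes outside the translation lists. The medians are 0.08 in the shortest bin and -0.08 in the longest, and the ribosomal genes gather at the short end between 0.08 and 0.24.

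Markers of other tissues also differed between the libraries. The sum of cuticle genes was lowest in replicate 1, as given above, and 3 hemocyte markers (NimB, PPO1 and PPO2) summed to 76.4, 118 and 221 TPM in replicates 1, 2 and 3. The 3 muscle markers summed to 2817, 6817 and 2713 TPM, highest in replicate 2. The actin gene A1 and the myosin light chain gene MLC-2 carried that sum, while Tm, the tropomyosin gene, was highest in replicate 1 (65.1, 55.5 and 53.5 TPM). Neuron markers summed to 709, 690 and 724 TPM and glia markers to 253, 249 and 258 TPM. Single markers went both ways: the shift of replicate 1 was -0.14 for the sodium channel gene Nav (59.2, 67.7 and 72.1 TPM), -0.08 for Rab3 and -0.10 for Ebony, against 0.10 for Elav and 0.08 for nAChRa7. The part of these markers in the shift of the 6 genes was not tested. Leaving Cyp4g25 and CSP3, a pair of abundant genes low in replicate 1, out of the total moved the share of TPM held by the 6 genes to 3.10 ± 0.160%. By library it was 3.28, 2.98 and 3.04% in replicates 1, 2 and 3, against 3.28, 2.91 and 2.95% of the whole total. Replicate 1 thus stayed the highest, by a smaller gap.

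Over all 3 libraries, EF1a and Tctp varied less beyond counting error than the 4 ribosomal genes, an order that did not hold without replicate 1. With all libraries the biological coefficient of variation (BCV) from edgeR was 5.17% for EF1a, 7.42% for Tctp, 9.03% for RpS3Ae, 9.13% for RpL10, 9.80% for RpS27a and 10.4% for RpS23. Counting error alone was between 0.229% (EF1a) and 0.837% (RpS27a). Of all tested genes, 39.8% had a lower BCV than EF1a, 54.1% a lower one than Tctp and 69.4% a lower one than RpS23. Among the 141 genes at 1000 TPM or more, 9.22% had a lower BCV than EF1a and 28.4% a lower one than Tctp, against 47.5% for RpS3Ae, 48.2% for RpL10, 61.0% for RpS27a and 69.5% for RpS23. Without replicate 1 the median BCV of the 6 genes was 2.43%, against 9.08% with all libraries. It was then 3.15% for EF1a and 2.58% for Tctp, above RpS3Ae (0.988%), RpL10 (1.07%) and RpS27a (2.28%) and below RpS23 (4.99%). The value of RpS3Ae is the floor of the estimate, which mRpL12 and TOR1 share with all libraries, and not a measured spread.

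The genes most like the 6 in their pattern were mostly other ribosomal genes. Most of the 6 are themselves ribosomal, so their median profile lies near that of the family and this outcome was largely set in advance. Likeness was the distance between the 3 log2 deviations and the median profile of the 6 genes, over 3 libraries and 135 candidate genes with a mean of 1000 TPM or more. The closest were RpL8 (distance 0.00605), RpL27A (0.0105), RpL13A (0.0109), LOC732932 (0.0111) and RpL21 (0.0116), against a median of 0.0706 over the candidates. RpL8 measured 2770, 2395 and 2400 TPM in replicates 1, 2 and 3. Of the 20 closest genes 16 were ribosomal, and of the 135 candidates 64 were. EF1a itself departed from the profile: its shifts were 0.08, -0.07 and -0.003 in replicates 1, 2 and 3, against 0.15, -0.06 and -0.08. With 3 libraries, such a likeness is a description only.

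The genes next to the 6 along the chromosomes of the reference assembly ASM3026992v2 were far lower. The flanking genes of EF1a were at 77.8 ± 12.8 and 16.7 ± 0.686 TPM (SD, n = 3), those of Tctp at 32.1 ± 1.97 and 44.3 ± 7.14 TPM, those of RpS3Ae at 94.1 ± 10.2 and 1.34 ± 0.433 TPM, those of RpS23 at 79.4 ± 6.36 and 37.6 ± 2.98 TPM, and those of RpL10 at 161 ± 5.50 and 25.1 ± 0.108 TPM. The highest neighbour was Tinp1, beside RpS27a, at 331 ± 29.8 TPM; the other flank of RpS27a was at 16.9 ± 3.39 TPM. Replicate 1 was the highest library for 6 of the 12 flanking genes on TPM, against 37.8% of all tested genes. No annotated gene overlapped EF1a, Tctp, RpS3Ae, RpS27a or RpL10 in that assembly. The span of RpS23 overlaps the microRNA gene Mir308, which was listed with 0, 0 and 3 counts. Reads from processed copies of these genes elsewhere in the genome were not measured.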

How the data were processed

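Per the labels, brain RNA of the 3 libraries was extracted with Trizol and made into libraries with an NEBNext Ultra kit. Trim Galore, HISAT2 and featureCounts are named in the submitters' processing notes, with no version or role. The build, annotation and strand setting were not given in the sources used here. Raw counts per gene, deposited by the authors, and their TPM, scaled to 1000000 per library, were used as they stand. Names came from the gene table of assembly ASM3026992v2: 14944 of 17072 identifiers matched.

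The 6 genes and the lists were chosen with earlier results of these data known; the list of Pabp, Rack1, TOR1, TOR2, S6K and Rheb, and the reading of tef2, were added after the tables had arrived. Named genes are the 6, the 3 highest and 2 lowest of each list, neighbours in the ribosomal order, 5 set abundant genes outside translation (Hsc70-4, Ant, Tua1, Crabp and A4) and the 5 most alike. RpS25, RpL39, the flanking genes and Tinp1 were named after their values were seen. RpL38, RpL7Ae, LOC692701, Cyp4g25, CSP3 and Mir308 are also outside that rule. Single markers come from the cell type lists.

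With 1 group and no contrast, no test was run. Scaling (TMM) and genewise dispersions with an intercept-only design came from edgeR 4.0.16, over 10173 genes with enough counts; DESeq2 1.42.0 gave alternatives. Relative length is counts over TPM, scaled to EF1a. Intervals are exact (Clopper-Pearson, 95%). The TMM-scaled shift of replicate 1 and the BCV common to all genes were tested on simulated data. Promoter motifs, planned, were not analysed here. R 4.3.3, Python 3.11.15, pandas 2.3.3 and SciPy 1.17.1 were used.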

Additional observations from a re-analysis of the deposited data

How the results depend on the processing

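Replicate 1 was the highest library for 6 of 6 genes under every scaling tried: TMM with and without a filter on low counts, plain CPM, DESeq2 size factors, the deposited TPM and a pseudocount of 0.1. The median shift of the 6 genes in replicate 1 was 0.14 (TPM) to 0.17 (plain CPM) there, and that of the ribosomal list 0.14 to 0.17. The shift rests on replicate 1: without it, the median shift of the 6 genes was 0.02 in replicate 2 and -0.02 in replicate 3, and the median BCV was 0.0243, against up to 0.112 with another replicate left out (0.0908 with all). Leaving out each replicate in turn gave shares of 2.93 to 3.12% of TPM and 1.57 to 1.69% of counts. As a share of the ribosomal, elongation and initiation lists alone, which is a smaller total, the 6 genes held 16.1% of TPM and 21.3% of counts. Without division by length, the median ratio of the other 5 genes to EF1a was 0.142 on CPM, against 0.395 on TPM, and 1 gene in place of 5 was among the 20 highest; EF1a is the longest of the 6. For single genes, 159 recomputed values moved by less than a limit set for each kind of value and 17 by more. Those 17 were ratios to EF1a on CPM and BCVs with a replicate left out. A BCV has no value per library, so its limit was not a spread between libraries. Values within the limit included shifts that changed sign, such as RpS23 in replicate 2 (-0.03, and 0.05 without replicate 1). Promoter motif shares were not run. No paired analysis was possible because there is only 1 group. Nothing in the labels bears on how far animals, extraction or sequencing set replicate 1 apart, and 3 libraries cannot show it.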
